A study of Solanum pimpinellifolium with 6 samples.

Results

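The miR156 and miR157 family of the wild tomato LA2093 (Solanum pimpinellifolium, a heat-tolerant accession) was taken as every listed miRNA whose name carries miR156 or miR157 with no further digit, 1 time per distinct mature sequence, together with every degradome site listed for these sequences. This gave 21 of the 759 listed entries and 18 of the 629 distinct sequences, of which 11 came from the 5p side of the hairpin, 6 from the 3p side and 1 from beside the loop, and 14 of the 220 distinct degradome sites, 6 of them on transcripts annotated as SPL. Seedlings of this 1 genotype were raised in climate chambers at 26/18 °C (day/night) and then either kept there (NT, normal temperature) or moved to 33/33 °C (MET, moderately elevated temperature) or 40/40 °C (AET, acutely elevated temperature), where the heated seedlings also received an extra daily watering. The second fully expanded leaf, mixed over several seedlings, was sampled at 8 h. For each temperature 1 small-RNA (sRNA) library and 1 degradome library, which sequences the 5′ ends of cut mRNAs, were made. There was thus no replicate check: each test compared 2 libraries and not the temperatures, and all intervals are 95% intervals that cover counting error only.

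In plants, miR156 pairs with the mRNAs of the SPL (SQUAMOSA promoter-binding protein-like) transcription factors and directs their cleavage, and it is best known for holding young shoots in the juvenile phase, since its level falls and SPL activity grows as a shoot ages. In Arabidopsis, SPL proteins switch on miR172, which in turn acts on AP2-like floral repressors, and miR156 has also been linked there to the memory of heat stress. A miRNA is cut from a hairpin as a duplex, in which the strand loaded into the silencing complex, here usually the 5p strand, is commonly more abundant than its partner (the 3p strand, or star strand).

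The sequences on which the results turn are shown 5′ to 3′ with the seed, bases 2 to 8, in capitals and with T for U, so that the places where the members differ can be read off.
spi-miR156a: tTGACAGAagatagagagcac
spi-miR156d-5p: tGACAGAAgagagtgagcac
spi-miR156f-5p_stu (20 nt): cTGACAGAagagagtgagca
spi-miR157d_ath (23 nt): tTGACAGAagatagagagcacct
spi-miR156i-p3_nta: gCTCTCTAtgcttctgtcatc
spi-miR157d-3p_aly: gCTCTCTAtgcttccgtcatc
spi-miR156d-3p: gCTCACTGctctatctgtcacc
spi-miR156b-p3: aTTGGAAGctgcaccttaattctt

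Counted from the 5′ end of spi-miR156a, spi-miR156d-5p began 1 base later and carried the substitutions T12G and A15T, so that its seed was GACAGAA instead of TGACAGA. The 20 nt spi-miR156f-5p_stu had the same T12G and A15T but began in the register of spi-miR156a, with T1C as a further difference, and therefore shared the seed of spi-miR156a. The 23 nt spi-miR157d_ath matched spi-miR156a over all 21 bases and added 2 bases at the 3′ end, and spi-miR157d-3p_aly differed from spi-miR156i-p3_nta only by T15C, so the sequences named miR157 were close relatives of spi-miR156a and its partner strand. Of the 5p raw reads, sequences with the seed TGACAGA held 90.9%, 90.9% and 91.3% at NT, MET and AET, and those with the seed GACAGAA held 8.47%, 8.88% and 8.53%.

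The family had 12 hairpins with a sequence, 11 of them with listed positions on 6 chromosomes. The tomato genome build of these positions is given in no source used here. The 23 nt spi-miR156a-5p_ath and the 21 nt spi-miR157d_ath had a listed folding energy but no hairpin sequence, so their hairpins are not among the 12. The pair spi-miR156a and spi-miR156i-p3_nta was listed on chromosome 6 (chr6:39241668-39241784, minus strand), and spi-miR156a together with spi-miR156b-p3 on chromosome 2 (chr2:47055512-47055595, plus strand). Both hairpins are shown because they carry the strands compared below, with the listed mature sequences in capitals.
chromosome 6 hairpin: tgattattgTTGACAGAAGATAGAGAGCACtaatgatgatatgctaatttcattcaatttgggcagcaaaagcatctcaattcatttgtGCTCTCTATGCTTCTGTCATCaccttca
chromosome 2 hairpin: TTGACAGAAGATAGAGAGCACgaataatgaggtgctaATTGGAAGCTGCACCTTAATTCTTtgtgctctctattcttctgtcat

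When the chromosome 6 hairpin of 117 bases was folded (minimum free energy -45 kcal/mol), 20 of the 21 bases of spi-miR156a, at positions 10 to 30, were paired with positions 88 to 108, and spi-miR156i-p3_nta occupied positions 90 to 110, which places it as the partner strand. In the chromosome 2 hairpin of 84 bases (-47.1 kcal/mol), spi-miR156a at positions 1 to 21 was paired with positions 63 to 83, whereas spi-miR156b-p3 lay at positions 38 to 61 with 12 paired bases, on the loop side of the partner strand. The sequence of spi-miR156a occurred without a mismatch in 5 of the 12 hairpins, on chromosomes 2, 3 and 6, and that of spi-miR156i-p3_nta in 2, which were both listed on chromosome 6. These last 2 hairpins shared a stretch of 117 bases although their listed positions overlapped only in part, and the same held over 112 bases for a pair on chromosome 8, so the positions are given as deposited and reads of spi-miR156a cannot be assigned to 1 locus.

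The authors' raw reads are estimated counts, because a read mapping to several places was split among them, and their normalized reads multiply these by a constant of each library (1.33, 0.833 and 0.898 at NT, MET and AET). The listed distinct sequences held 301702, 424963 and 394910 raw reads at NT, MET and AET, and the family contributed 919.389 (0.305%), 2047.5 (0.482%) and 1486 (0.376%) of them. The family was dominated by 1 sequence: spi-miR156a had 670, 1605.5 and 1049.5 raw reads, or 891, 1338 and 942 normalized reads, at NT, MET and AET, and ranked 24, 20 and 21 among all listed sequences. It made up 86.7%, 86.7% and 88.2% of the 5p reads. Of the 18 sequences, 12 (66.7%) had reads in all 3 libraries, against 70.7% of all distinct sequences, while 11 stayed under 10 normalized reads in every library.

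The other 5p sequences were about an order of magnitude or more below spi-miR156a. spi-miR156d-5p had 63.5, 160 and 100 raw reads (84.4, 133 and 89.8 normalized reads) at NT, MET and AET, and the 20 nt spi-miR156f-5p_stu had 17, 61.5 and 28 raw reads (22.6, 51.2 and 25.1 normalized reads). All 3 of these 5p sequences were therefore highest in the MET library, with the NT and AET values near each other. The 23 nt spi-miR157d_ath did not share this order, with 9.5, 5 and 6 raw reads (12.6, 4.17 and 5.39 normalized reads).

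On the 3p side, spi-miR156i-p3_nta had 120, 158 and 245 raw reads (160, 132 and 220 normalized reads), spi-miR156d-3p had 9, 12 and 20 raw reads (11.96, 10.0 and 17.96 normalized reads) and spi-miR157d-3p_aly had 14, 16.5 and 15.5 raw reads (18.6, 13.7 and 13.9 normalized reads). The first 2 of these 3p sequences were thus highest in the AET library. In the order of normalized reads within the MET library, spi-miR156d-5p (160 raw reads) and spi-miR156i-p3_nta (158 raw reads) were level, whereas in the NT and AET libraries spi-miR156i-p3_nta lay above spi-miR156d-5p with intervals that did not overlap. The counting intervals of spi-miR156f-5p_stu, spi-miR157d-3p_aly, spi-miR157d_ath and spi-miR156d-3p all overlapped in the NT library, so these are not separated there.

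**Figure D1:**
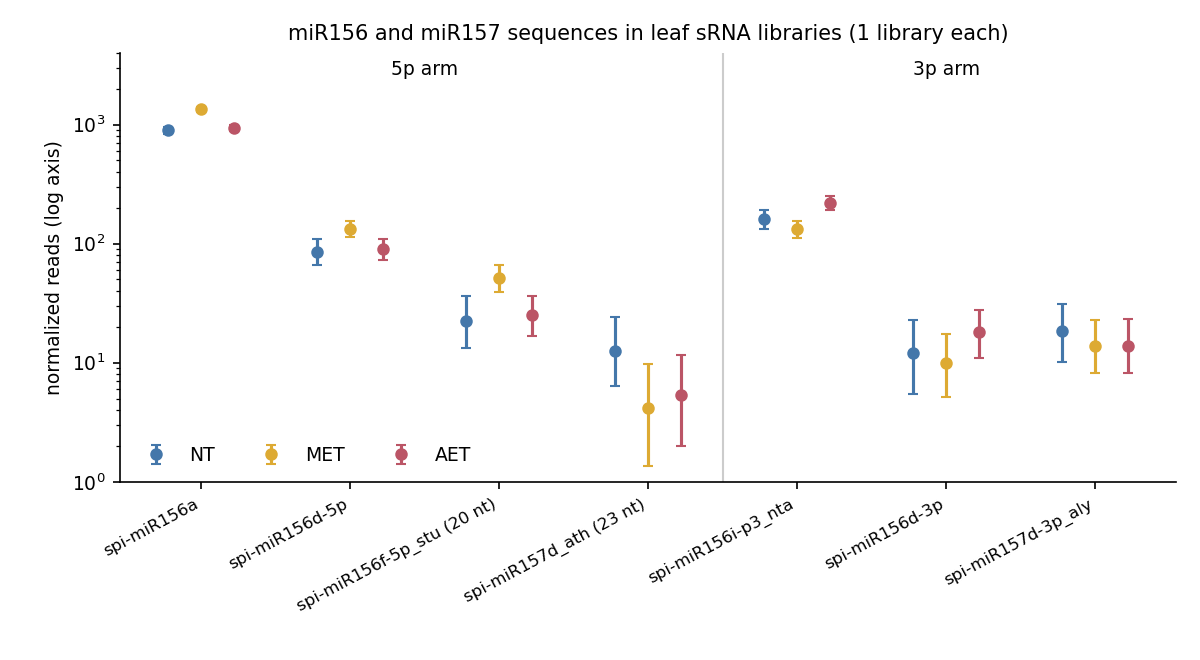
Normalized reads (log axis) of the 7 family sequences that reached 10 normalized reads in some library, with the 5p sequences on the left and the 3p sequences on the right; points are the NT, MET and AET libraries (1 each) and bars are exact Poisson 95% intervals from the raw reads. The MET library is the highest of the 3 for spi-miR156a (1338), spi-miR156d-5p (133) and the 20 nt spi-miR156f-5p_stu (51.2), while the AET library is the highest for spi-miR156i-p3_nta (220).

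The remaining members were traces. The 22 nt spi-miR156a_stu, which is spi-miR156a with 1 more base, had 2, 10 and 3 raw reads, the 21 nt spi-miR156a_stu had 4.5, 1 and 1, spi-miR156a-p5_ath had 3, 2.5 and 1.5, spi-miR156f-3p_stu had 2, 4.5 and 7, spi-miR156f-p3_stu had 1, 4.5 and 0, and the 21 nt spi-miR156f-5p_stu had 2, 4.5 and 1.5. spi-miR156b-p3 was the only family sequence read in the AET library alone, with 0, 0 and 8 raw reads. The 23 nt spi-miR156a-5p_ath had 2 raw reads in the MET library alone, and spi-miR156e-3p, spi-miR156e-5p and the 21 nt spi-miR157d_ath had at most 1 raw read, in the NT library alone.

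The first comparison asked which sequences differed between the moderately elevated and the normal temperature. The summed 5p sequences were 1543 normalized reads in the MET library against 1028 in the NT library, a log2 ratio of 0.59 (0.46 to 0.71), and spi-miR156a itself had a log2 ratio of 0.59 (0.46 to 0.72), or 1.5-fold. spi-miR156d-5p lay beside it at 0.66 (0.22 to 1.09), and the 20 nt spi-miR156f-5p_stu at 1.18 (0.40 to 2.06), or 2.27-fold. The abundant 3p sequences lay lower, with intervals that included 0: spi-miR156i-p3_nta was at -0.28 (-0.63 to 0.08), which became 0.15 when reads were scaled to the valid reads of each library, and spi-miR156d-3p was at -0.26 (-1.63 to 1.17), with 0.17 under that scaling. The sequences named miR157 were at -1.60 (-3.57 to 0.01) for the 23 nt spi-miR157d_ath and at -0.44 (-1.50 to 0.74) for spi-miR157d-3p_aly. The 3p traces spi-miR156f-p3_stu, at 1.496 (-1.51 to 7.21), and spi-miR156f-3p_stu, at 0.50 (-1.96 to 4.04), had at most 4.5 raw reads in these libraries.

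A sequence was called where its log2 ratio was 1 or more in size and where Fisher's exact test (two-sided) and a chi-square test, each on normalized reads against all other listed entries, both had a p of at most 0.05. By this rule 1 of the 17 family sequences tested was called between the MET and NT libraries, against 12.2% of all 605 sequences tested, and this was spi-miR156f-5p_stu of 20 nt (Fisher's exact p = 0.000273, Benjamini-Hochberg adjusted p = 0.00262). Without the limit on the ratio, by the adjusted Fisher's exact p alone, 3 family sequences were higher in the MET library and 0 lower, against 14.7% of all sequences in either direction; these were spi-miR156a (adjusted p = 1.4e-29), spi-miR156d-5p (adjusted p = 0.000791) and spi-miR156f-5p_stu. Scaled to the valid reads of each library, which raised the median log2 ratio of all sequences by 0.42, spi-miR156a reached 1.01 and spi-miR156d-5p 1.08, and both were then called, which made 3 of 17 family sequences against 14.7% of all 605 under that scaling. Within the 5p reads the rises were not separable: relative to spi-miR156a, spi-miR156d-5p changed 1.04-fold (0.764 to 1.44) and spi-miR156f-5p_stu 1.52-fold (0.87 to 2.8) from the NT to the MET library.

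Between the acutely elevated and the normal temperature, the summed 5p sequences were nearly level. The sum was 1069 against 1028 normalized reads, a log2 ratio of 0.06 (-0.07 to 0.19), with spi-miR156a at 0.08 (-0.06 to 0.22), spi-miR156d-5p at 0.09 (-0.39 to 0.55) and spi-miR156f-5p_stu at 0.15 (-0.77 to 1.12). Without spi-miR156a the sum was at -0.11, a value for which no interval was taken, although spi-miR156d-5p and spi-miR156f-5p_stu each lay above 0. The sign of the sum was thus not settled by these counts. The partner strand spi-miR156i-p3_nta was higher in the AET library, at 0.46 (0.14 to 0.79), or 1.38-fold, and spi-miR156d-3p was at 0.59 (-0.61 to 1.90). The sequences named miR157 lay below 0 on both strands, with intervals that included 0: the 23 nt spi-miR157d_ath was at -1.23 (-3.05 to 0.30) and spi-miR157d-3p_aly at -0.42 (-1.50 to 0.77).

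By the rule of both tests and the limit on the ratio, 1 of 17 family sequences was called between the AET and NT libraries, against 22.1% of all 597 sequences tested. It was spi-miR156b-p3, with 8 raw reads against 0, which is at least 1.8-fold higher against a floor of 3 reads per library, with a lower end of the exact interval at a log2 ratio of 0.21 (Fisher's exact p = 0.00526, adjusted p = 0.0229), and it was no longer counted when at least 10 normalized reads in a library were required. By the adjusted Fisher's exact p alone, spi-miR156b-p3, spi-miR156i-p3_nta (adjusted p = 0.000292) and spi-miR156a (adjusted p = 0.00246) passed, 3 of 17, against 26.3% of all sequences. The tests weigh a sequence against the rest of the listed reads, whose normalized total over entries was 427428, 391158 and 382989 at NT, MET and AET. For spi-miR156a the low p therefore belongs to its share of these totals, with 891 normalized reads at NT and 942 at AET. Its share of the raw reads of the distinct sequences was also higher at AET (0.222% at NT and 0.266% at AET), whereas the interval of its normalized ratio included 0.

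Between the acutely and the moderately elevated temperature, the 3 abundant 5p sequences and spi-miR156i-p3_nta differed in opposite directions. spi-miR156a was lower in the AET library, at a log2 ratio of -0.51 (-0.62 to -0.39), as were spi-miR156d-5p at -0.57 (-0.95 to -0.20) and spi-miR156f-5p_stu at -1.03 (-1.74 to -0.37), and the sum of the 5p sequences was at -0.53 (-0.64 to -0.42). spi-miR156i-p3_nta was higher in the AET library, at 0.74 (0.45 to 1.04), or 1.67-fold. spi-miR156d-3p was at 0.84 (-0.26 to 2.01) and spi-miR157d-3p_aly at 0.02 (-1.06 to 1.09), the latter at -0.27 when scaled to valid reads. The 5p sequence spi-miR157d_ath of 23 nt was at 0.37 (-1.60 to 2.42), and the 3p trace spi-miR156f-p3_stu went from 4.5 to 0 raw reads, so spi-miR156i-p3_nta was the only sequence of the 3p side whose interval excluded 0.

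Of the 15 family sequences tested in that comparison, 2 were called, against 21.4% of all 599 sequences: spi-miR156f-5p_stu lower (Fisher's exact p = 0.00398, adjusted p = 0.0193) and spi-miR156b-p3 at least 2.87-fold higher against the floor, with a lower end of the exact interval at a log2 ratio of 0.88 (Fisher's exact p = 0.00725, adjusted p = 0.0317). By the adjusted Fisher's exact p alone 5 passed, against 24.4% of all sequences, with spi-miR156a (adjusted p = 1.33e-13), spi-miR156d-5p (adjusted p = 0.0317) and spi-miR156f-5p_stu lower, and spi-miR156i-p3_nta (adjusted p = 1.09e-05) and spi-miR156b-p3 higher. The NT, MET and AET libraries enter 2 comparisons each, so these 3 comparisons are not independent of each other.

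Over the 7 family sequences that reached 10 normalized reads in some library, the median log2 ratio was -0.26 between MET and NT, 0.09 between AET and NT and 0.02 between AET and MET, beside -0.0074, 0.15 and -0.022 over the 310, 303 and 303 sequences with that level in the whole list. Of the 7, 3, 5 and 4 were above 0 in these comparisons.

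**Figure D2:**
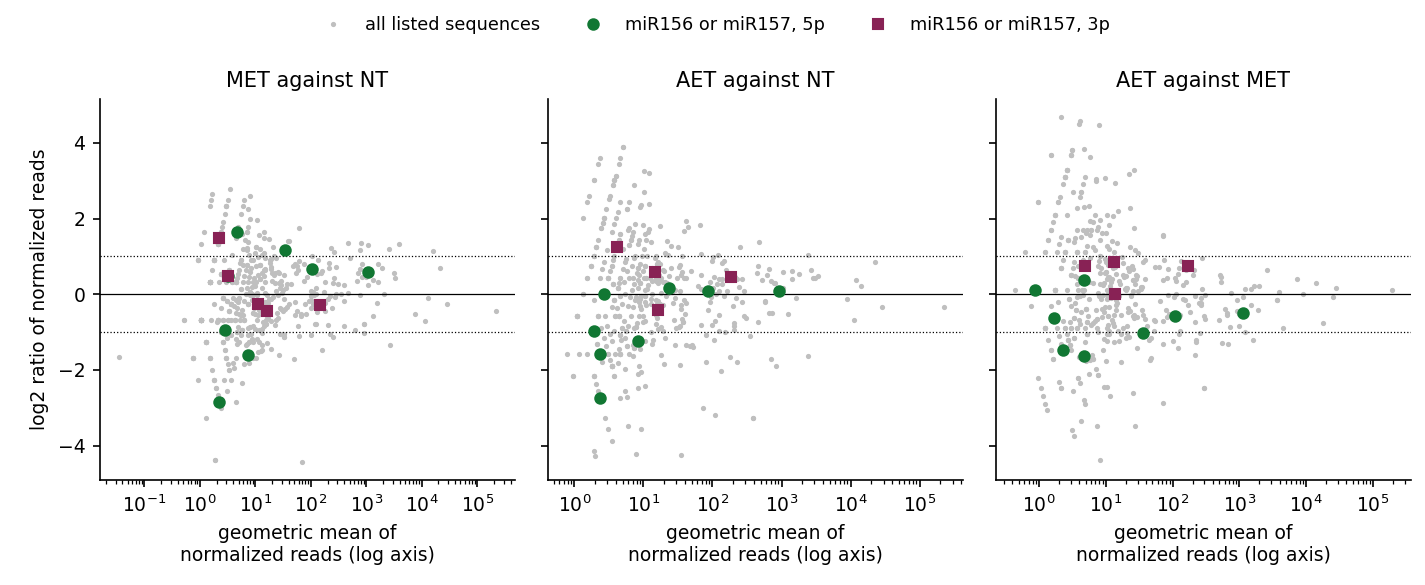
Log2 ratio of normalized reads against the geometric mean of the normalized reads of both libraries (log axis) for every listed sequence with reads in both (grey), with the 5p (green circles) and 3p (purple squares) sequences of the family; dotted lines mark a log2 ratio of 1 and -1. The 3 most abundant 5p sequences lie above 0 in MET against NT (0.59, 0.66 and 1.18) and below 0 in AET against MET (-0.51, -0.57 and -1.03), while the most abundant 3p sequence lies at -0.28 and 0.74.

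The ratio of the strands of a hairpin was then compared, because it is formed inside each library and does not depend on the scaling. spi-miR156a had 5.58 raw reads (4.59 to 6.84) per read of spi-miR156i-p3_nta at NT, 10.2 (8.63 to 12) at MET and 4.28 (3.73 to 4.95) at AET. The NT and MET intervals did not overlap, nor did the MET and AET intervals. From the NT to the MET library the ratio changed 1.82-fold (1.4 to 2.36; Fisher's exact p = 5.21e-06, adjusted p = 0.000193 over 74 pairs of strands in the list), and from the MET to the AET library 0.422-fold (0.338 to 0.525; Fisher's exact p = 1.5e-15, adjusted p = 2.77e-14).

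The smaller difference between AET and NT, 0.768-fold (0.599 to 0.98), had a Fisher's exact p of 0.0324 and did not pass after adjustment (adjusted p = 0.102). Since spi-miR156a also lies in hairpins on chromosomes 2 and 3, whose partner strands are other sequences, this is a ratio of 2 sequences and not of 1 hairpin.

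The second pair, spi-miR156d-5p and spi-miR156d-3p, listed together on chromosome 8, followed the same order at a lower depth, with 7.06 (3.52 to 16.3), 13.3 (7.42 to 26.3) and 5 (3.07 to 8.53) reads of the 5p per read of the 3p strand at NT, MET and AET. Its change from MET to AET was 0.376-fold (0.16 to 0.849; Fisher's exact p = 0.0126, adjusted p = 0.0359), and its changes from NT to MET (1.87-fold, 0.661 to 5.11; adjusted p = 0.434) and from NT to AET (0.704-fold, 0.265 to 1.74; adjusted p = 0.659) did not pass. The sequence of spi-miR156d-5p occurred without a mismatch in 4 of the 12 hairpins and that of spi-miR156d-3p in 2. This pair, too, is therefore a ratio of 2 sequences and not of 1 hairpin. The pair of the 23 nt spi-miR157d_ath and spi-miR157d-3p_aly was at 0.679 (0.284 to 1.73), 0.303 (0.0848 to 0.831) and 0.387 (0.12 to 1.01), with 1 inside the interval at NT and AET. The 23 nt sequence had no exact copy in the 12 hairpins, and the chromosome 3 hairpin of this pair also holds spi-miR156a, whose reads are not in this ratio.

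Of the 6 family pairs of a listed 5p and a listed 3p sequence of 1 hairpin, 1 passed in MET against NT, against 14.9% of all 74 pairs, 0 in AET against NT, against 24.3%, with 2 pairs at an unadjusted Fisher's exact p of 0.05 or less, and 3 in AET against MET, against 36.5%. One of these 3 was spi-miR156a with spi-miR156b-p3, which is listed as the 3p sequence of its hairpin but lies on the loop side and is not the partner strand, shares spi-miR156a with the first pair and rests on the 8 reads of the AET library. Shifts toward the 3p strand were common in the list in AET against MET, with 17 of the 74 pairs passing in that direction, the 3 family pairs among them, and 10 toward the 5p strand. In that comparison the direction of the family was thus also that of the larger part of the pairs that passed. In MET against NT 6 pairs passed toward the 5p strand, the family pair among them, and 5 toward the 3p strand.

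**Figure D3:**
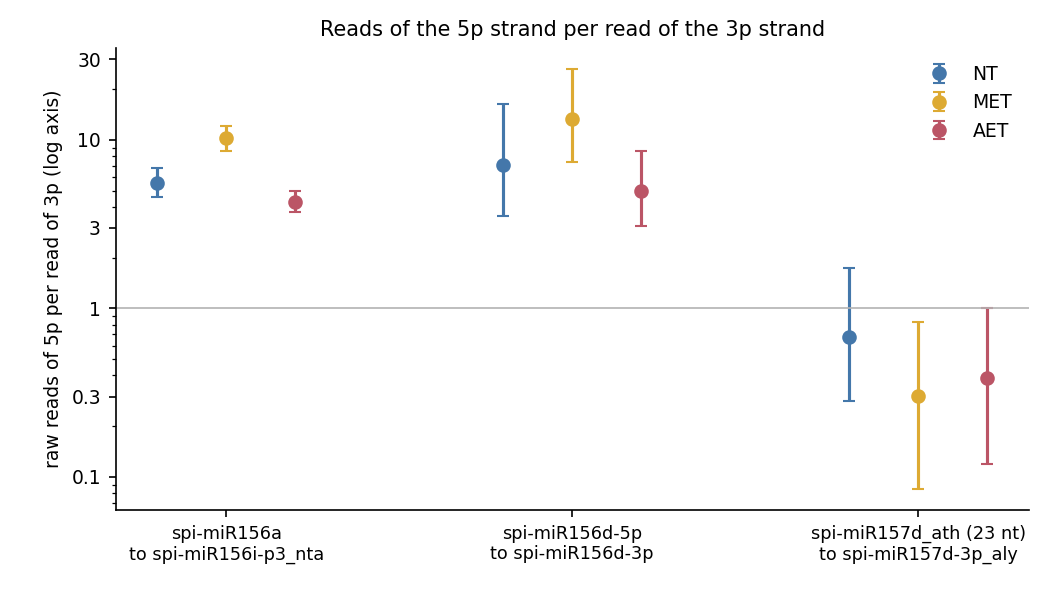
Raw reads of the 5p sequence per raw read of the 3p sequence (log axis) for 3 strand pairs at NT, MET and AET (1 each), with exact 95% intervals. The MET library is highest for spi-miR156a to spi-miR156i-p3_nta (10.2, against 5.58 and 4.28) and for spi-miR156d-5p to spi-miR156d-3p (13.3, against 7.06 and 5), while the points of the miR157d pair lie below 1, with intervals that include 1 at NT and AET.

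The degradome libraries asked which transcripts carried cut ends at sites paired with these miRNAs. The deposited tags at each site are scaled to a fixed library total (TPB), on which scale 1 read was worth 84.9, 87.2 and 92.1 TPB at NT, MET and AET of 11774232, 11471728 and 10853424 reads. All 6 sites on transcripts with a symbol beginning SPL, SBP or CNR in the deposited list were listed for members of this family, and each library with a cut end there had exactly 1 read. The NT library had 2 of them, SPL2 (Solyc05g015510.2.1, position 2962) and SPL9 (Solyc10g078700.1.1, position 775). The MET library had 2, SPL9 at the same position and SPLTFFP (Solyc03g114850.2.1, position 1481), and the AET library had 3, SPL2 (Solyc04g045560.2.1, position 799) and SPLTFFP (Solyc05g015840.2.1, position 760, and Solyc05g012040.2.1, position 1429).

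SPL9 was thus the only SPL transcript seen in more than 1 library, and no SPL site was seen in all 3, against 37 of the 220 sites of all miRNAs. SPL9 and SPL2 are transcription factors of the SPL family, and SPLTFFP is the symbol the authors gave to further transcripts annotated as SPL family proteins. All 7 observations were in category 4, the authors' class for a single raw read, and 59.8%, 56.5% and 56.5% of all sites were in that class at NT, MET and AET, with a median of 1 read a site. A site with 0 reads may have had up to 3 reads (255, 262 and 276 TPB at NT, MET and AET), so a difference between the libraries was not detectable at this depth.

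At each of the 6 SPL sites the listed cut lay opposite base 10 of the miRNA. The same held in 29 of the 33 rows listed for the family and in 292 of the 349 rows of the whole list. The position was thus not particular to these sites and is not taken as evidence of cleavage. The SPL sites divided by the register of the sequences. The 5 sequences with the seed TGACAGA were listed for SPL2 on both transcripts, SPL9 and, in 4 of the 5, Solyc05g015840.2.1. The 2 sequences with the seed GACAGAA, which begin 1 base later, were listed for Solyc03g114850.2.1 and Solyc05g012040.2.1, with no SPL transcript in both sets. Since each SPL site was listed opposite base 10, 1 cut position could be listed for only 1 of the 2 registers. The division therefore does not show that the seeds act on different transcripts. spi-miR156f-5p_stu of 20 nt, whose later bases are those of spi-miR156d-5p, was listed with the former set. The alignment scores of these sites, in which a lower score is a closer pairing, ran from 1 to 4, with the lowest at Solyc05g012040.2.1.

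Outside SPL, the family had 8 sites. The one with the most reads was KIN17 (Solyc05g054500.1.1, position 526), listed for the 3p sequence spi-miR156i-p3_nta at a score of 4, with 2, 1 and 3 reads at NT, MET and AET (category 2, 4 and 2), and it was the only family site seen in all 3 libraries. CRY1 (Solyc12g057040.1.1, position 254), named for the blue-light receptor cryptochrome, had 1 read in the MET library and ERVT (Solyc01g105100.2.1, position 363) 1 read in the AET library. CRY1 and 5 more of these sites were listed for spi-miR156e-5p, a sequence of 0.5 raw reads at NT and 0 elsewhere, and each had 1 read in 1 library: AXS2 (Solyc01g009420.2.1), Solyc03g031620.2.1 and Solyc08g065150.1.1 in the NT library, and DNAB (Solyc03g097670.2.1) and PCS1 (Solyc09g072620.2.1) in the AET library. Base 4 of spi-miR156e-5p, which lies inside its seed, is listed as N, an undetermined base.

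None of the 14 family sites differed between libraries by Fisher's exact test (unadjusted p of 0.362 or more), and 0% of the 220 sites passed after Benjamini-Hochberg adjustment in any of the 3 comparisons, with 7 at an unadjusted p of 0.05 or less.

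**Figure D4:**
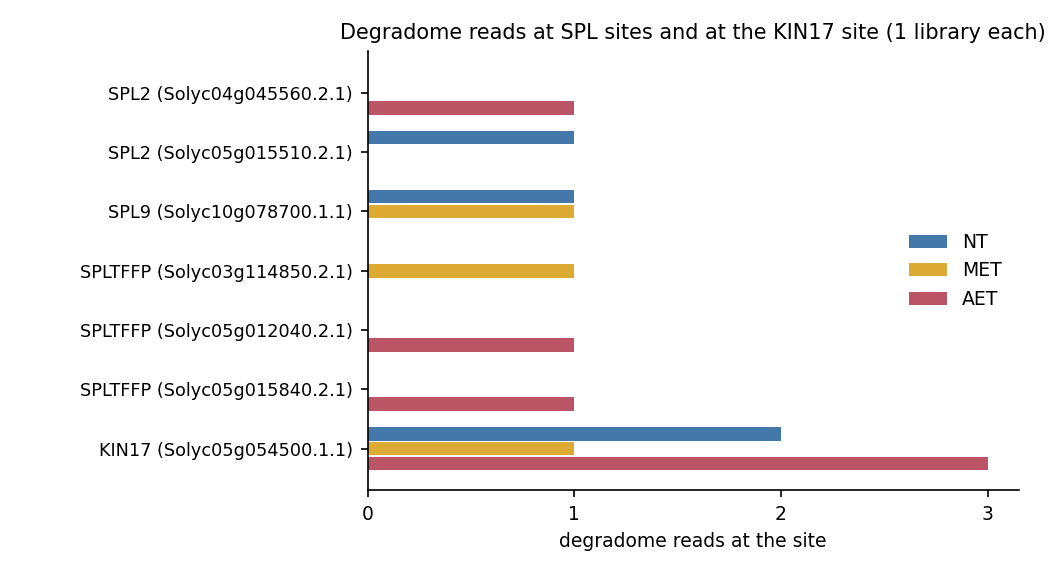
Degradome reads at the 6 SPL sites and at the KIN17 site at NT, MET and AET (1 each); a missing bar is 0 reads. Each SPL site has 1 read in 1 library, except SPL9 with 1 read in the NT and 1 in the MET library, and KIN17 has 2, 1 and 3 reads.

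Other miRNAs of the same pathway were taken by name. miR529 and miR535, which are related to miR156 in sequence and act on SPL genes in other plants, had 0 listed sequences. miR172 had 8 distinct sequences with 92.4, 140 and 78.1 normalized reads in sum at NT, MET and AET. Of those tested, 0 of 8 were called in MET against NT, against 12.2% of all sequences. In AET against NT 1 of 8 was called lower, against 22.1%, and in AET against MET 1 of 7, against 21.4%. The sequence called in both was spi-miR172d-3p_stu, with 33.2, 37.5 and 1.80 normalized reads (log2 ratio -4.21, adjusted Fisher's exact p = 1.53e-06, and -4.38, adjusted p = 4.9e-08), while spi-miR172a had 39.9, 70.0 and 61.5 normalized reads. At the 8 listed sites of miR172 on 5 AP2-like transcripts the degradome libraries held 8, 3 and 6 reads in sum.

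The sequences outside the family whose pair of log2 ratios (MET against NT and AET against NT, 3 libraries) lay nearest to that of spi-miR156a, among 65 with at least 100 normalized reads in every library, were spi-miR482b-3p_stu (0.56 and 0.28, distance 0.203), spi-miR171b-p3_mes (0.82 and 0.09, distance 0.237) and spi-miR482c_stu (0.46 and 0.29, distance 0.249).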

How the data were processed

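Leaf sRNA and degradome libraries (1 of each per temperature) were used as deposited. For the sRNA list the authors removed sequences outside 19 to 24 nt and those matching other RNA classes or repeats, matched the rest to plant miRNAs of miRBase, and deposited raw reads (estimated counts, split among mapping places) and normalized reads, a score made with 1 factor per library. For the degradome the authors used CleaveLand and Targetfinder on tomato transcripts and deposited the tags per site as a score scaled to a fixed library total, with a category, which were divided here by the value of 1 read. Deposited fold changes and p-values were not used, and 0 columns of per-sample values had no sample. The hairpin sequences came from the supplementary tables.

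Reads were rounded to whole numbers for the tests. Fisher's exact and chi-square tests ran over all 629 distinct sequences, with Benjamini-Hochberg adjustment, and intervals were exact (Clopper-Pearson on the rounded raw reads, or Poisson). Strand pairs needed at least 10 raw reads over both strands in each library. Hairpins without unknown bases were folded with RNAfold 2.7.2. The members and lists were chosen with earlier results of these data known: every family sequence and site was named, with miR172, miR529, miR535 and the 3 nearest sequences. Alternatives were 2 scalings, other totals, adjusted p, filters on reads and ratio, and rounding down. The scripts (Python 3.11.15, numpy 2.4.6, scipy 1.17.1, pandas 2.3.3, matplotlib 3.10.9) were tested on simulated data. None of the 14 target transcripts matched the RefSeq gene table, so names are those of the files, and transcript sequences were not used here.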

Additional observations from a re-analysis of the deposited data

How the results depend on the processing

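No paired analysis was possible because each temperature had 1 library. Scaling to valid reads shifted the median log2 ratio of all sequences by 0.42 between MET and NT, 0.14 between AET and NT and -0.29 between AET and MET. It moved the summed 5p ratio to 1.01, 0.20 and -0.82, and called 3 family sequences in MET against NT (14.7% of all sequences). Raw reads against valid reads called 3 in MET against NT (15.4% of all) and 4 in AET against MET (26.9% of all). With no limit on the ratio and unadjusted p the counts were 3, 3 and 5, and a share of all sequences was not taken for that rule. The same family sequences passed by the stricter adjusted Fisher's exact p alone, by which 14.7%, 26.3% and 24.4% of all sequences passed. With at least 10 normalized reads required the counts were 1, 0 and 1, and a share of all sequences was not taken under that filter. Without spi-miR156a the summed 5p ratio was -0.11 in AET against NT and -0.70 in AET against MET. With all 5p and all 3p sequences summed, the log2 strand ratio in AET against NT was -0.39 (unadjusted Fisher's exact p = 0.0147), beside -0.38 for spi-miR156a to spi-miR156i-p3_nta, which also passed unadjusted (p = 0.0324) but not after adjustment. Requiring category 0, 1 or 2 left 0 SPL sites at NT, MET and AET, and counting each deposited miRNA gave 10, 8 and 12. For the family results (calls, summed 5p ratio, strand ratio and SPL sites), 31 values under the alternatives were unchanged or nearly so, 1 came to pass the threshold and 19 moved. For single sequences, 151 values under the alternatives kept their direction and their side of the threshold or moved within counting error, 11 came to pass the threshold and 6 moved further. No value that was called changed sign. The depth limited the traces and the SPL sites, where 1 read decided each observation.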
